A study of Peromyscus californicus with 17 samples.

Results

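The levels of 8 genes, *Egfr*, *Erbb2*, *Met*, *Braf*, *Stk11*, *Keap1*, *Nfe2l2* and *Rb1*, were followed in the lungs of male California mice (*Peromyscus californicus*), a rodent that forms lasting pair bonds. They are known from human lung cancer as drivers or suppressors, and were taken from the table by symbol, 8 of 27786 genes. All 8 were measured in all 17 animals and all 8 passed the filter on low values, which 13924 genes passed. Total RNA from 1 lung sample per animal was sequenced in 6 bonded males, 6 bond-disrupted males and 5 virgin males. Bonded males had lived with a female for 4 months. Bond-disrupted males had been paired for the same 4 months and were sampled 7 days after being taken out of the cage shared with the female. Virgin males were housed 3 to a cage by the labels, while the study also mentions smaller groups. Brothers or cousins were spread over the groups. The labels name no tumour, drug or transgene in any group, and RNA levels do not show mutations.

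In human lung adenocarcinoma, activating mutations of the receptor tyrosine kinases EGFR, ERBB2 and MET, or of the kinase BRAF below them, drive the RAS and ERK growth signal. STK11 encodes LKB1, the kinase that activates AMPK when energy runs low, and is often lost. KEAP1 is the adaptor that marks NRF2, the product of *Nfe2l2* and the main activator of antioxidant genes, for destruction, and loss of the adaptor or activation of the factor switches on the same targets. RB1 holds back E2F factors and so the entry into the cell cycle, and its loss marks small cell lung cancer. In normal lung the receptors act in epithelial growth and repair.

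The deposited FPKM (read numbers scaled by gene length and by sequencing depth) of these genes could not be compared between animals as they stood. Each animal's column had been divided by the length of another gene, a different one in each column, as was visible from read numbers that came out whole only with the length of the gene found further up the table, 1 row more for each column. For the 8 genes, lengths between 80 and 14497 bases had been used. *Keap1*, whose own length is 3311 bases, had been divided by 80 bases in V5 and by 6517 bases in B1, and stood in the table at 1580 FPKM in V5 and at 16.8 FPKM in B1. Between 3302 and 7864 reads were recovered for *Keap1* in each animal, and with its own length the gene lay at 38.1 FPKM in V5 and at 33.0 FPKM in B1. With the deposited values, 0.215%, 0.607% and 0.188% of 18602 genes would have been called in bond-disrupted against bonded, virgin against bonded and virgin against bond-disrupted lungs. The smallest adjusted p of a member with those values would have been 0.589 by limma. All levels below are FPKM with the length of the gene itself.

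**Figure D1:**
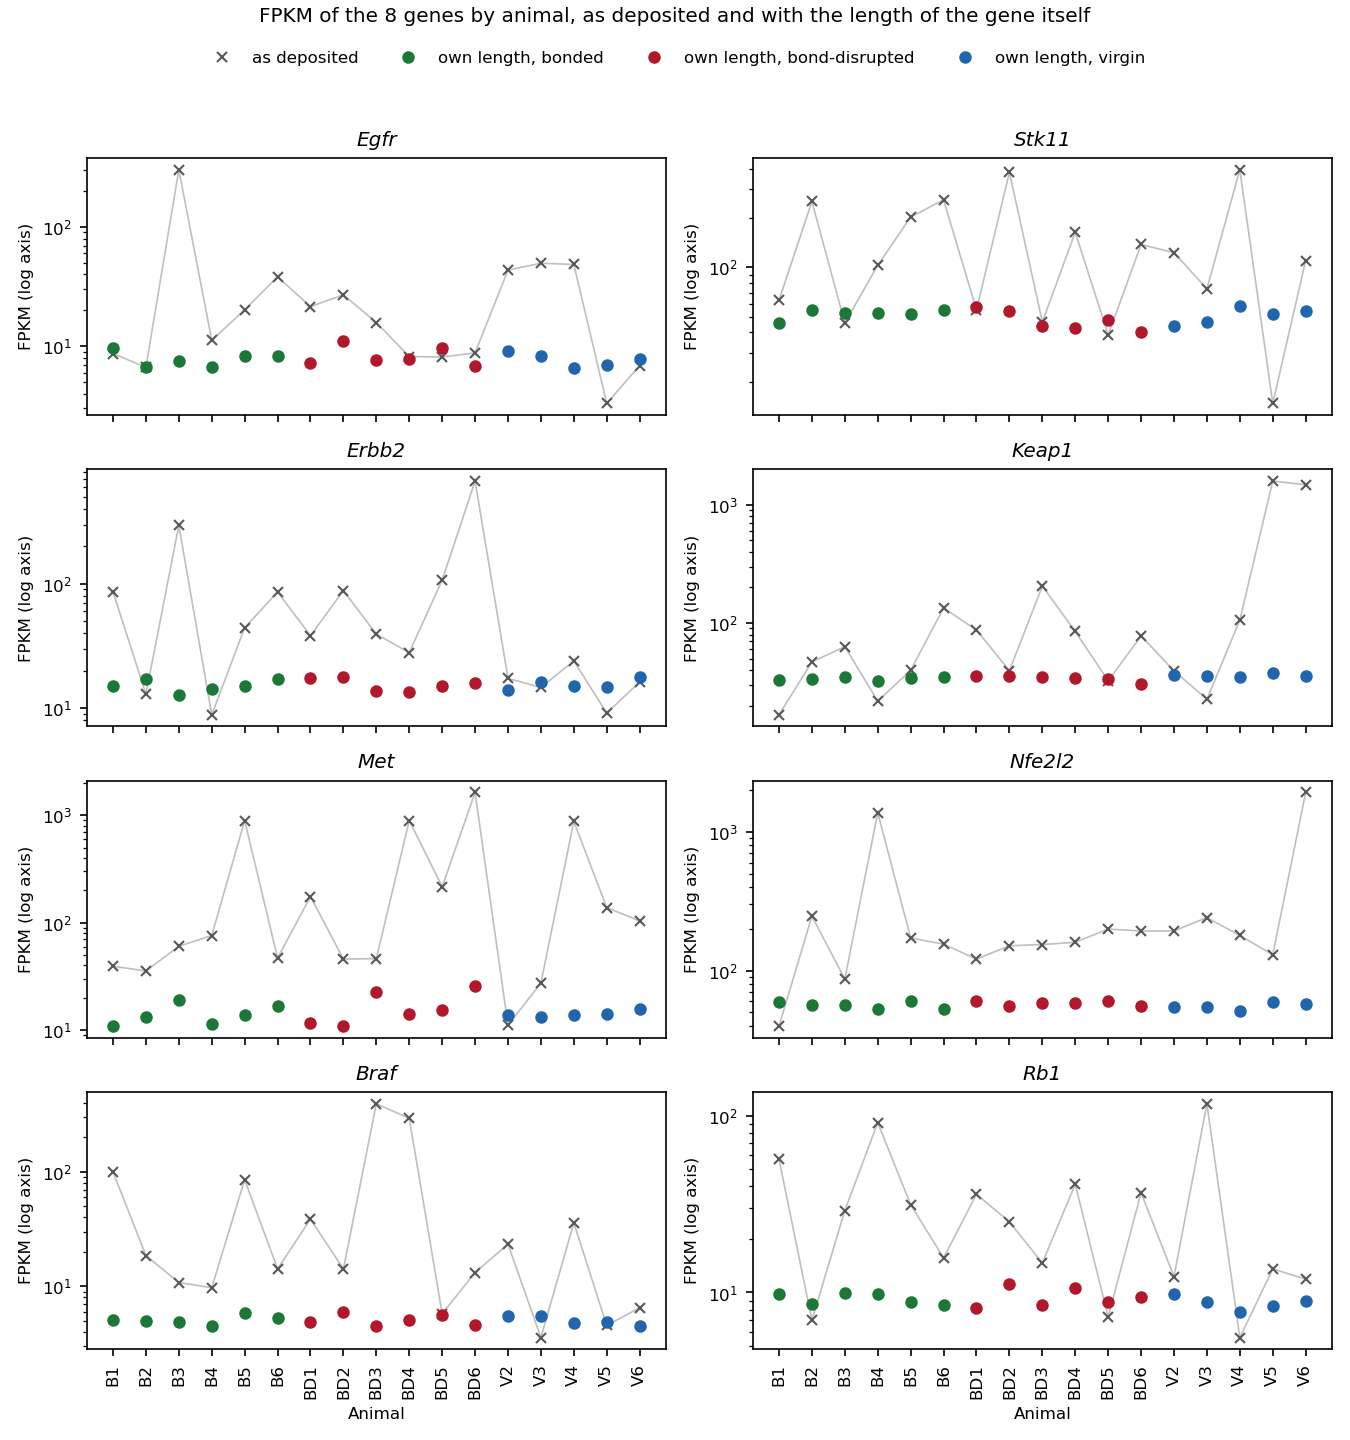
Each panel shows 1 gene in the 17 animals (x axis), with FPKM on a log axis, as deposited (grey crosses joined by a line) and with the gene's own length (filled circles, coloured by group). The deposited values of Met run from 11.1 to 1630 FPKM, while its own-length values stay between 10.9 and 25.7 FPKM.

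*Nfe2l2* was the most abundant, with a mean of 56.8 ± 2.94 FPKM (SD, n = 17), above 92.0% of the genes tested. It was followed by *Stk11* at 50.1 ± 5.49 FPKM and *Keap1* at 34.7 ± 1.78 FPKM, so the KEAP1 and NRF2 pair and the LKB1 kinase made up the 3 most abundant. The receptors came next, *Erbb2* at 15.4 ± 1.6 FPKM and *Met* at 15.1 ± 4.02 FPKM, then *Rb1* at 9.17 ± 0.901 FPKM, *Egfr* at 7.99 ± 1.25 FPKM and *Braf* at 5.08 ± 0.468 FPKM. *Stk11* exceeded *Keap1*, *Keap1* exceeded *Erbb2* and *Egfr* exceeded *Braf* in 17 of 17 animals. *Nfe2l2* exceeded *Stk11* in 15 of 17, all but B6 and V4. *Erbb2* exceeded *Met* in 12 of 17, so these neighbours did not differ beyond the spread between animals. *Met* exceeded *Rb1* in all animals but BD2, and *Rb1* exceeded *Egfr* in all but BD5. The values rested on 1322 reads (*Braf*) to 13621 reads (*Nfe2l2*) per animal, and most reads came as pairs, which leaves a counting error of at most 3.89% of a value.

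The genes also differed in how much they varied between animals of a group. *Keap1* had a within-group SD of 0.064 on the log2 scale, and only 0.663% of 12374 genes with at least 100 reads on average had a smaller one. *Nfe2l2*, with 0.074, was nearly as even, since 1.83% of genes lay below it. *Met* was the most variable of the 8, with 0.334, above 81.8% of those genes and above 87.5% of the 1000 genes of most similar level, whose median was 0.167. The other members lay between 0.117 (*Braf*) and 0.201 (*Egfr*).

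**Figure D2:**
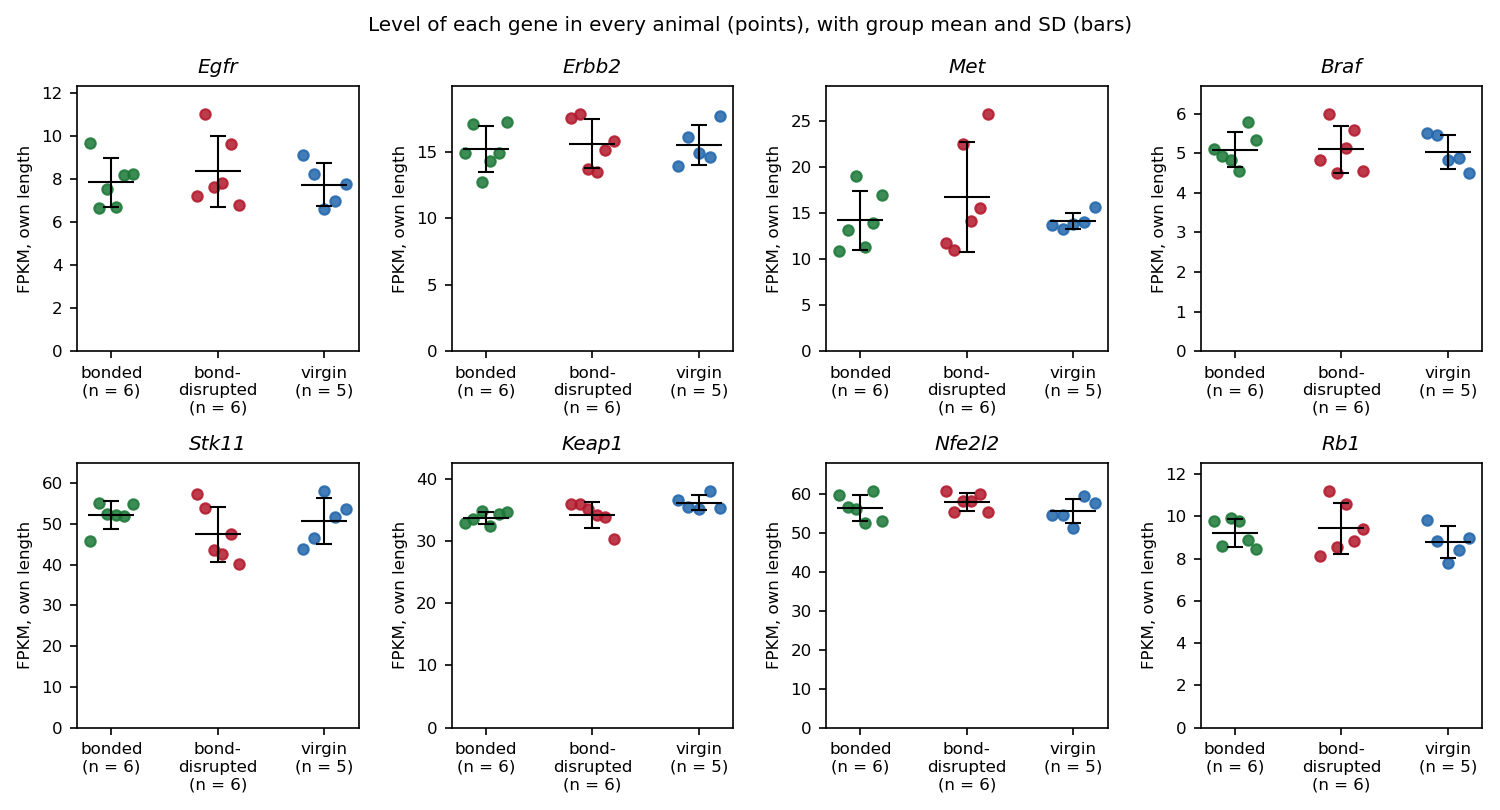
Own-length FPKM of each gene in every animal (points; linear axes from 0), in 6 bonded males, 6 males after bond disruption and 5 virgins, with the group mean and SD as bars. The groups overlap in every panel except for virgin and bonded animals in Keap1, and Met has its highest values, 25.7 and 22.5 FPKM, in 2 bond-disrupted animals.

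The first question was whether these genes differed after loss of the partner. The labels do not give the housing of the bond-disrupted males after separation, and the study describes its bond-disrupted serum donors as kept singly. Loss of the partner and any single housing cannot be told apart here. In bond-disrupted against bonded lungs, 0 of the 8 members passed the threshold of an adjusted p under 0.1 (limma, Benjamini-Hochberg over all genes) and a fold change of 2, and the percentage of all 13924 genes that passed was 0.0%. The largest member differences were for *Met*, with a log2 fold change of 0.18 ± 0.18 (SE), and *Stk11*, with -0.14 ± 0.09. When 1 animal was left out, that of *Met* ran from 0.0528 without BD6 to 0.2834 without BD2, and it was 0.0898 without BD3 and 0.1168 without B1. None of the 8 had an unadjusted p under 0.05, against 5.81% of all genes. The data come from whole lung, so fewer cells of a type and less RNA per cell cannot be told apart in any of these values.

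The second question was whether a history of bonding, intact or disrupted, set lungs apart from those of virgin males. In virgin against bonded lungs, 0 of 8 members and 0.0% of all genes passed the threshold, and 0 members against 3.59% of all genes had an unadjusted p under 0.05. In virgin against bond-disrupted lungs, the same counts were 0 of 8 against 0.0%, and 0 of 8 against 4.24%. Over the 24 member comparisons of this fit, in which related animals were not paired, the smallest unadjusted p was 0.104 and the smallest adjusted p was 0.878 by limma. The data bounded the differences closely, since 0 of the 24 intervals at 95% confidence held a difference of 2-fold. The bounds farthest from no difference, both for *Met*, were 1.48-fold in bond-disrupted against bonded and 0.671-fold in virgin against bond-disrupted. The 3 comparisons share their animals and are not independent.

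**Figure D3:**
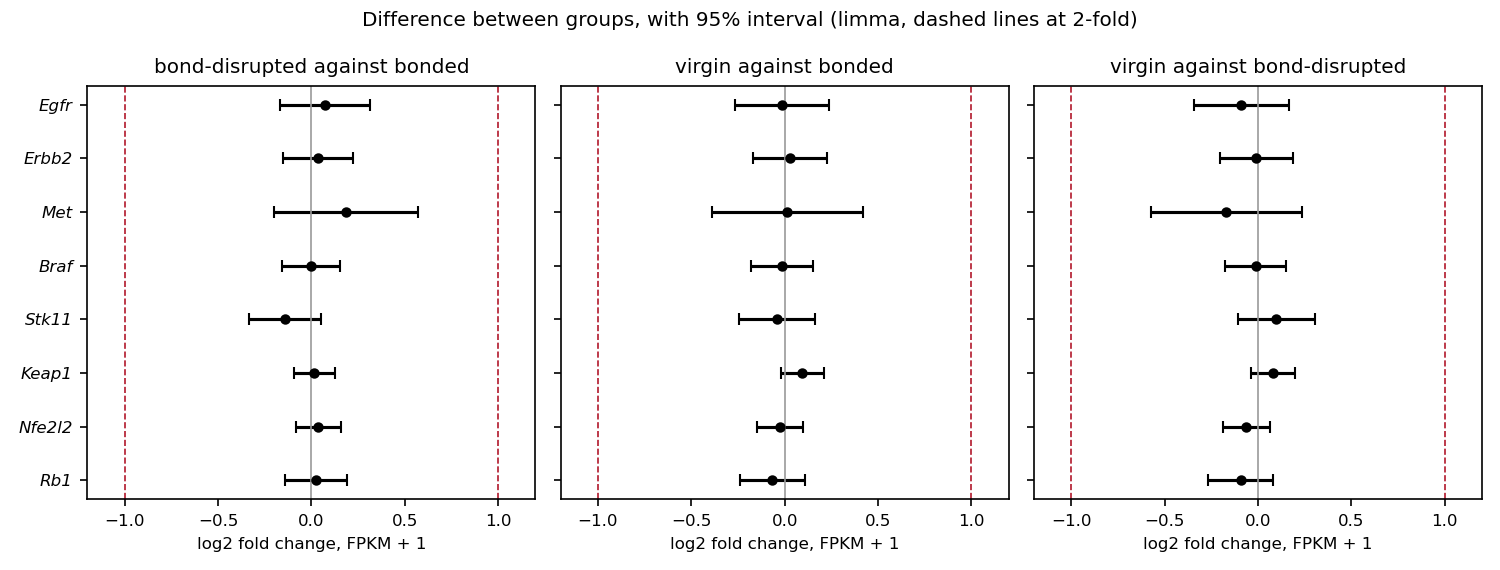
Log2 fold change of FPKM + 1 for each gene (rows) in the 3 comparisons (panels), with 95% intervals from limma. Every interval spans 0 and lies inside the dashed lines at 2-fold, and those of Met are the widest.

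*Egfr*, the receptor for EGF and its relatives, had a lowest, median and highest value of 6.66, 7.87 and 9.67 FPKM in bonded lungs. The same values were 6.77, 7.73 and 11.0 FPKM in bond-disrupted lungs, and the virgin lungs held 9.11, 8.22, 6.59, 6.98 and 7.76 FPKM. BD2, B1 and BD5 were high in *Egfr* and the 3 groups overlapped. Bond-disrupted and bonded lungs differed by 0.07 ± 0.11 (SE) on the log2 scale, with a 95% interval of 0.89-fold to 1.24-fold, and virgin and bonded lungs by -0.02 ± 0.12.

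*Erbb2*, the receptor without a ligand of its own that pairs with the other ErbB receptors, had 12.7, 14.9 and 17.2 FPKM as its lowest, median and highest bonded values and 13.5, 15.4 and 17.8 FPKM as its bond-disrupted ones. The virgin values were 13.9, 16.1, 14.9, 14.6 and 17.7 FPKM. The 3 group means, 15.2 ± 1.7, 15.6 ± 1.85 and 15.5 ± 1.5 FPKM, differed by less than their SDs. The interval in bond-disrupted against bonded lungs ran from 0.899-fold to 1.17-fold.

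*Met*, the receptor for hepatocyte growth factor, stood at 10.9, 13.2, 19.0, 11.3, 13.9 and 16.9 FPKM in B1 to B6. In BD1 to BD6 it stood at 11.7, 11.0, 22.5, 14.1, 15.5 and 25.7 FPKM, and in V2 to V6 at 13.7, 13.3, 13.8, 14.0 and 15.6 FPKM. The virgin animals lay within 1.17-fold of each other, while the bond-disrupted ones spanned 2.34-fold and held the 2 highest values of the series. The 3 animals highest in *Met*, BD6, BD3 and B3, were also the 3 highest in the macrophage marker *Marco*, at 196, 183 and 156 FPKM, and in *Cd68*, at 65.0, 49.4 and 54.7 FPKM. The other 2 macrophage markers did not follow that order: B4, with 11.3 FPKM of *Met*, was highest in *Adgre1* at 4.48 FPKM and exceeded BD3 in *Mrc1*, at 21.9 against 19.5 FPKM. The sum of the 4 macrophage markers ran from 86.9 to 238 FPKM in bonded, from 48.7 to 309 in bond-disrupted and from 78.4 to 178 in virgin lungs, and its part in the *Met* values was not tested. BD6 was also the library least like the others, with a median r of 0.9535. The groups overlapped, and the adjusted p by limma was 0.896 in bond-disrupted against bonded lungs.

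The ErbB list of receptors, ligands and inhibitors held 17 genes, of which 13 passed the filter on low values. The receptor gene *Erbb4* stayed under 1 FPKM in every animal, as did the ligand genes *Ereg* and *Epgn*, and the length of *Erbb3* was not settled. The most abundant gene was *Lrig1*, an inhibitor of ErbB receptors, at 21.5 FPKM, and the least abundant was the ligand gene *Areg* at 0.632 FPKM. In bond-disrupted against bonded lungs 2 of 13 had an unadjusted p under 0.05 on the higher side and 2 on the lower side, against 2.85% and 2.96% of all genes, and 0 passed adjustment (limma, smallest adjusted p 0.811).

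Both genes on the lower side encode ligands of EGFR. *Hbegf*, heparin-binding EGF, had a mean of 10.4 ± 1.25 FPKM in bond-disrupted and 13.0 ± 0.945 FPKM in bonded lungs, a log2 fold change of -0.30 ± 0.08 with an adjusted p of 0.811 by limma. Its values were 12.9, 13.4, 14.4, 12.4, 13.1 and 11.6 FPKM in B1 to B6 and 11.9, 9.65, 9.1, 11.0, 11.5 and 9.05 FPKM in BD1 to BD6, so only BD1 and B6 crossed. The virgin values of *Hbegf*, 11.5, 10.5, 10.2, 11.9 and 11.5 FPKM, also lay mostly below the bonded ones, by -0.20 ± 0.08 on the log2 scale (unadjusted p = 0.0199, adjusted p = 1.0, limma). The difference between virgin and bond-disrupted lungs was 0.10 ± 0.08. *Egf* was low, with 1.7, 1.59, 1.93, 1.53, 1.64 and 1.4 FPKM in B1 to B6, 1.33, 1.26, 1.22, 1.37, 1.36 and 1.09 FPKM in BD1 to BD6, and 1.47, 1.58, 1.64, 1.75 and 1.44 FPKM in the virgins. Every bond-disrupted animal lay below every bonded and every virgin animal in *Egf*. Ranges lay apart in 0.287% and 0.251% of all genes in these comparisons. They did so in the direction of *Egf* in 0.136% of all genes in bond-disrupted against bonded lungs, and likewise in 0.136% in virgin against bond-disrupted lungs. The log2 fold changes of *Egf* were -0.21 ± 0.06 and 0.18 ± 0.06, and neither passed adjustment (adjusted p = 0.811 and 0.946, limma).

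The genes on the higher side, named after their values were seen, were *Nrg4*, a ligand of ERBB4, and *Errfi1*, a feedback inhibitor of EGFR. *Errfi1* had 20.6 ± 9.89 FPKM in bond-disrupted and 14.3 ± 2.07 FPKM in bonded lungs, with BD2 alone at 40.6 FPKM. Without BD2, 0 genes of the list remained at an unadjusted p under 0.05 on the higher side, as was also so without B2, B6, BD5 or V4. *Lrig1* was higher in virgin than in bond-disrupted lungs by 0.24 ± 0.10 on the log2 scale, with an unadjusted p of 0.0228 and an adjusted p of 0.946 by limma.

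The MET list had 8 genes and all passed the filter. *Spint2*, an inhibitor of the proteases that activate hepatocyte growth factor, was the most abundant at 182 FPKM. *Hgfac*, the gene of one such protease, was the least abundant, at 0.73 FPKM, and the only one of the 8 with an unadjusted p under 0.05, in bond-disrupted against bonded lungs (log2 fold change -0.25 ± 0.09, adjusted p = 0.811, limma), where 2.96% of all genes were at that p on the lower side and 5.81% on either side. The ligand gene *Hgf* had 6.34 ± 1.32 FPKM in bonded, 5.95 ± 0.588 in bond-disrupted and 5.87 ± 1.09 in virgin lungs, values that overlapped.

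*Braf*, the RAF kinase most often mutated in cancer, ran at 4.54, 5.02 and 5.79 FPKM (lowest, median, highest) in bonded and at 4.49, 4.98 and 5.98 FPKM in bond-disrupted lungs. The virgin values were 5.5, 5.47, 4.82, 4.88 and 4.49 FPKM. The group means of 5.09 ± 0.436, 5.1 ± 0.593 and 5.03 ± 0.441 FPKM differed by less than their SDs, and bond-disrupted and bonded lungs differed by -0.0018 ± 0.0739 (SE) on the log2 scale. *Braf* was the least abundant of the 16 genes of its cascade that passed the filter. *Mapk3*, which encodes ERK1, was the most abundant at 188 FPKM.

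In the same cascade, 2 of 16 genes had an unadjusted p under 0.05 on the higher side in bond-disrupted against bonded lungs and 0 on the lower side, against 2.85% and 2.96% of all genes. One of them was *Shoc2*, a scaffold of RAF activation, at 21.0 ± 1.1 against 19.0 ± 1.56 FPKM. *Ksr1*, a scaffold of RAF and MEK, was at 8.98 ± 0.836 FPKM in virgin and 7.47 ± 0.543 FPKM in bond-disrupted lungs. The adjusted p by limma was 0.839 for *Shoc2* and 0.946 for *Ksr1* in those comparisons. The median log2 fold change of the 16 genes was -0.014 in bond-disrupted against bonded lungs, beside 0.006 for all genes tested.

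*Stk11* had 45.8, 52.4 and 55.2 FPKM as the lowest, median and highest bonded value. In BD1 to BD6 it had 57.3, 53.8, 43.7, 42.6, 47.4 and 40.1 FPKM, and the virgin values were 43.9, 46.6, 58.1, 51.6 and 53.7 FPKM. BD3, BD4 and BD6 lay below all bonded animals, BD5 lay below all but B1, and BD1 lay above all of them. Bond-disrupted and bonded lungs differed by -0.14 ± 0.09 (SE) on the log2 scale, with an interval of 0.793-fold to 1.04-fold and an unadjusted p of 0.146 (limma).

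The LKB1-AMPK list had 16 genes that passed the filter. *Cab39*, which encodes MO25 and activates LKB1 as part of its complex, was the most abundant at 51.1 FPKM, close to *Stk11* itself, and *Prkaa2*, the gene of a catalytic AMPK subunit, was the least abundant at 3.46 FPKM. *Cab39* alone had an unadjusted p under 0.05, with 53.5 ± 1.89 FPKM in bond-disrupted and 48.5 ± 2.25 FPKM in bonded lungs (adjusted p = 0.811, limma), and 1 of 16 was close to the 5.81% of all genes at that p. The median log2 fold change of the list was -0.018 in that comparison.

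*Keap1* had 33.0, 33.6, 34.8, 32.4, 34.4 and 34.7 FPKM in B1 to B6 and 36.0, 36.0, 35.2, 34.2, 33.9 and 30.3 FPKM in BD1 to BD6. In V2 to V6 it had 36.6, 35.5, 35.2, 38.1 and 35.4 FPKM. Every virgin animal lay above every bonded one, a separation in this direction found in 0.345% of all genes in that comparison, or 0.496% in either direction. The difference was small, 1.07-fold (95% interval 0.985 to 1.16), and did not pass the test: the unadjusted p by limma was 0.104 and the adjusted p was 1.0. The virgin range overlapped that of the bond-disrupted lungs.

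*Nfe2l2* had 52.6, 56.4 and 60.8 FPKM as the lowest, median and highest bonded value and 55.4, 58.2 and 60.8 FPKM as the bond-disrupted ones. The virgin values were 54.7, 54.7, 51.3, 59.5 and 57.7 FPKM. The groups overlapped and the interval in bond-disrupted against bonded lungs ran from 0.946-fold to 1.11-fold. The list of both genes and their partners held 9 genes that passed the filter, *Keap1* and *Nfe2l2* included. The most abundant was *Sqstm1*, which encodes the KEAP1-binding autophagy receptor p62, at 164 FPKM, and the least abundant was *Mafg*, a small MAF partner of NRF2, at 6.24 FPKM. *Cul3*, the ubiquitin ligase scaffold that KEAP1 recruits, was the only one with an unadjusted p under 0.05, at 28.7 ± 2.67 FPKM in bond-disrupted and 25.8 ± 1.74 FPKM in bonded lungs (adjusted p = 0.857, limma). This was 1 of the 9 genes, where 2.85% of all genes were at that p on the higher side and 5.81% on either side.

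Of 16 NRF2 target genes that passed the filter, 15 had a log2 fold change above 0 in bond-disrupted against bonded lungs, where 52.2% of all genes did. Their median log2 fold change was 0.09, beside 0.006 for all genes, so the differences were small. In the same comparison 5 of 16 had an unadjusted p under 0.05 on the higher side, against 2.85% of all genes, and 0 passed adjustment (limma, smallest adjusted p 0.811). *Me1*, malic enzyme, a source of NADPH, had the largest difference, 0.37 ± 0.09 on the log2 scale. Its values were 105, 88.0, 91.9, 88.8, 95.1 and 92.5 FPKM in B1 to B6 and 107, 108, 129, 132, 117 and 138 FPKM in BD1 to BD6, without overlap, as in 0.151% of all genes in this direction.

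The other 4 were *Txnrd1* (thioredoxin reductase), *Pgd* and *Tkt* (enzymes of the pentose phosphate pathway) and *Cat* (catalase), the last pair named after their values were seen. *Txnrd1* was at 29.8 ± 1.58 against 26.3 ± 2.7 FPKM, *Pgd* at 56.2 ± 7.7 against 48.2 ± 5.83 FPKM, *Tkt* at 122 ± 11.4 against 108 ± 6.05 FPKM and *Cat* at 102 ± 18.0 against 82.8 ± 10.7 FPKM. The widely used target *Nqo1* had 48.7 ± 9.78 against 46.6 ± 13.3 FPKM and *Hmox1*, heme oxygenase, 7.5 ± 1.62 against 7.07 ± 1.02 FPKM, both without passing the test. The count of 5 fell when single animals were left out: it was 1 without B5 or without BD3, 2 without B1, B2 or BD6, and 3 without BD4, BD5, V2, V5 or V6. Over these 17 fits the share of all genes on that side ran from 1.89% to 4.06%, and it was 2.49% without B5 and 2.57% without BD3. The count was also 1 with voom on recovered reads, where the share of all genes was 1.36%, and with quantile normalization, where it was 2.43%. When 1 animal was left out, the number above 0 lay between 13 and 16 and the median between 0.071 and 0.129, while the median of all genes lay between -0.002 and 0.011. With voom 15 of 17 targets lay above 0, with a median of 0.06 beside -0.041 for all genes, and with quantile normalization 14 of 16 did, with a median of 0.086 beside 0.004. In virgin against bonded lungs 14 of the 16 lay above 0, with a median of 0.047, where 52.3% of all genes did, and *Me1* had an unadjusted p of 0.0318. *Pgd* was lower in virgin than in bond-disrupted lungs by -0.33 ± 0.10 on the log2 scale, with an adjusted p of 0.946 by limma. *Fth1*, ferritin heavy chain, was the most abundant target at 1380 FPKM and *Gpx2* the least abundant at 1.05 FPKM.

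Of 43 markers of lung and other cell types that were tested, 3 had an unadjusted p under 0.05 in bond-disrupted against bonded lungs, 6.98% beside 5.81% of all genes, and 0 passed adjustment. One was *Sftpb*, surfactant protein B of type 2 alveolar cells, which had 3110 ± 471 FPKM in bond-disrupted, 3050 ± 561 in virgin and 2310 ± 361 in bonded lungs, with an unadjusted p of 0.00611 and an adjusted p of 0.811 by limma in the first comparison. The summed level of the 3 type 2 markers measured ran from 14700 to 25000 FPKM in bonded, from 15000 to 32100 in bond-disrupted and from 17800 to 30300 in virgin lungs. The others were the smooth muscle genes *Acta2* and *Myh11*, which had unadjusted p of 0.0361 and 0.0235 on the lower side (adjusted 0.851 and 0.811, limma), and the sum of the 3 genes of that list ran from 278 to 647 FPKM in bonded and from 163 to 515 FPKM in bond-disrupted lungs. The part of these markers in the values of the NRF2 targets or of any member was not tested.

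**Figure D4:**
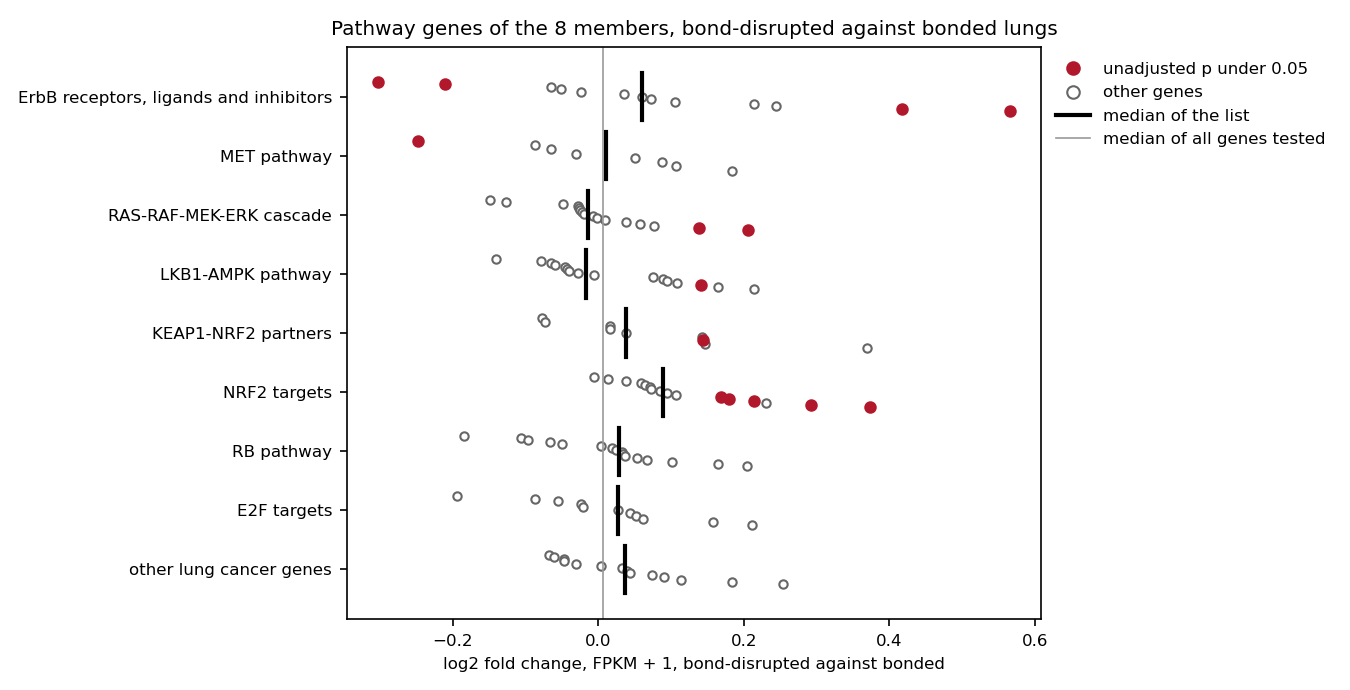
Log2 fold change of FPKM + 1 in bond-disrupted against bonded lungs (x axis) for each gene of the 9 pathway lists (rows). Filled red points have an unadjusted p under 0.05, open points do not, black bars are list medians and the grey line is the median of all genes tested; the NRF2 targets have 15 of 16 points above 0.

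*Rb1* had 8.46, 9.32 and 9.92 FPKM as the lowest, median and highest bonded value and 8.13, 9.12 and 11.2 FPKM as the bond-disrupted ones. The virgin values were 9.84, 8.81, 7.8, 8.41 and 8.96 FPKM. BD2 and BD4 were the highest and the groups overlapped. The largest difference was in virgin against bond-disrupted lungs, with a log2 fold change of -0.09 ± 0.08 and an interval of 0.831-fold to 1.06-fold.

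Among the 16 RB pathway genes that passed the filter, *Cdkn1b*, the inhibitor p27, was the most abundant at 65.4 FPKM and *Ccne1*, cyclin E1, the least abundant at 0.747 FPKM. *Ccnd1*, the cyclin D1 that starts the inactivation of RB, had 70.6 ± 14.3 FPKM in virgin and 50.4 ± 11.4 FPKM in bond-disrupted lungs, a log2 fold change of 0.48 ± 0.16. Its virgin values were 51.5, 65.2, 67.7, 80.5 and 88.4 FPKM and its bond-disrupted ones 68.0, 42.1, 59.3, 40.3, 51.3 and 41.3 FPKM, which overlapped, and the adjusted p was 0.946 by limma. *Rbl2*, the RB relative p130, was higher in virgin than in bonded lungs by 0.20 ± 0.08 on the log2 scale, with an adjusted p of 1.0 by limma.

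The 11 E2F targets that passed the filter had 0 genes at an unadjusted p under 0.05 in each of the 3 comparisons, where 5.81%, 3.59% and 4.24% of all genes were, so 0 of 11 was near the background. *Pcna* was the most abundant at 40.2 FPKM and *Rrm2* the least abundant at 0.913 FPKM. The proliferation marker *Mki67* had 0.929 ± 0.346 FPKM in bonded, 0.885 ± 0.489 in bond-disrupted and 0.927 ± 0.195 in virgin lungs.

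Of 16 other genes of lung cancer, 14 passed the filter, while *Alk* stayed under 1 FPKM in every animal. *Fgfr1* was the most abundant at 64.1 FPKM and *Atm* the least abundant at 1.87 FPKM. *Ret*, a receptor tyrosine kinase activated by gene fusions in lung cancer, had 5.34 ± 1.53 FPKM in virgin and 3.54 ± 0.704 FPKM in bonded lungs, with V3 at 7.98 FPKM (log2 fold change 0.47 ± 0.15, adjusted p = 1.0, limma). *Rbm10*, a splicing regulator, was higher in virgin than in bond-disrupted lungs by 0.12 ± 0.06 on the log2 scale, with an adjusted p of 0.946 by limma. Over the 9 lists, 119 genes were tested, 8 members included. At an unadjusted p under 0.05 stood 11 on the higher and 3 on the lower side in bond-disrupted against bonded lungs, or 11.8% of the list genes beside 5.81% of all genes (2.85% higher and 2.96% lower). The counts were 3 and 1 in virgin against bonded lungs, where 2.13% and 1.47% of all genes did, and 5 and 2 in virgin against bond-disrupted lungs, where 2.15% and 2.09% did. None of the 119 passed adjustment (limma).

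Levels of the members were also compared with each other over the 17 animals. Of 28 pairs, 1 had an adjusted permutation p under 0.05 for Pearson's r, *Egfr* with *Braf*. Their r was 0.754 (p = 0.00044, adjusted 0.0123, two-sided permutation test with 100000 resamples, n = 17) and Spearman's rho was 0.708 (p = 0.00212, adjusted 0.0594). Without B1 and BD2, the animals farthest from the median of *Egfr*, r was 0.724, and with group means subtracted it was 0.765. *Egfr* with *Rb1* had an r of 0.533 and a rho of 0.456 (permutation p = 0.0279 and 0.068, n = 17), neither of which passed adjustment (0.391 for r), and r was 0.226 without B1 and BD2. *Erbb2* with *Stk11* had an r of 0.449 and a rho of 0.515 (permutation p = 0.0729 and 0.0363, adjusted 0.51 and 0.508, n = 17), and r was 0.382 without BD2 and V6. *Keap1* and *Nfe2l2* had an r of 0.145 and a rho of -0.0 (permutation p = 0.583 and 1.0, adjusted 0.776 and 1.0, n = 17). *Egfr* with *Erbb2* had an r of 0.133 and a rho of 0.154 (permutation p = 0.609 and 0.553, adjusted 0.776 and 0.76, n = 17), and *Egfr* with *Met* an r of -0.303 and a rho of -0.164 (permutation p = 0.236 and 0.527, adjusted 0.667 and 0.76, n = 17). The r of the last 3 pairs changed sign when the 2 animals farthest from the median were left out.

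**Figure D5:**
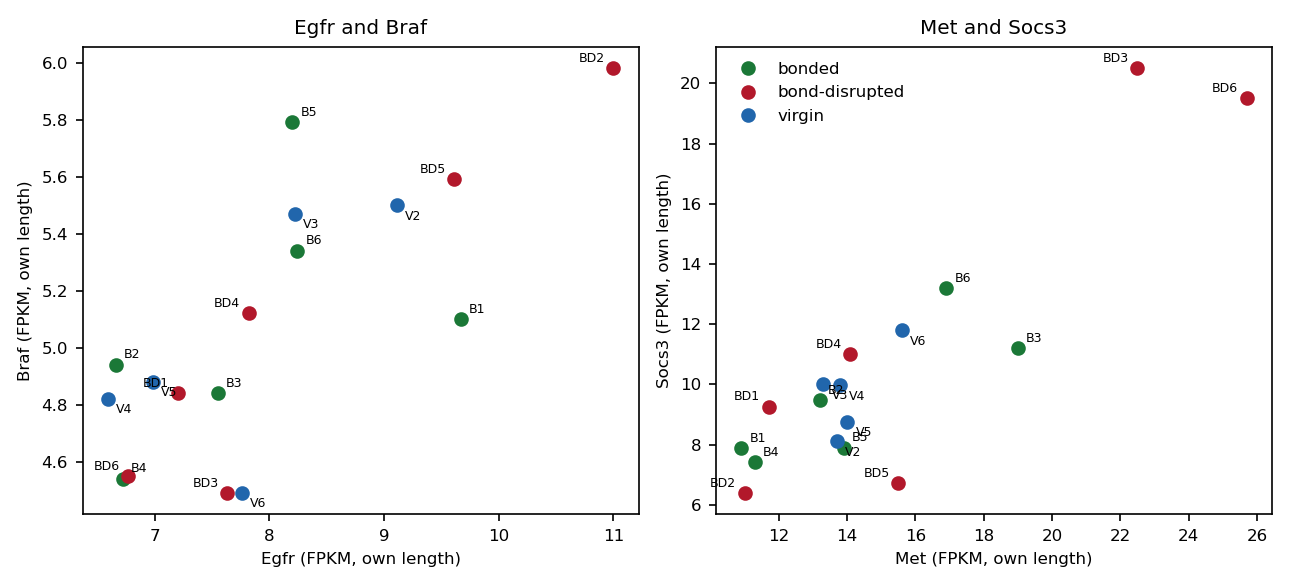
Own-length FPKM of Egfr against Braf (left) and of Met against Socs3 (right), 1 point per animal, labelled and coloured by group (linear axes that do not start at 0). BD2 is highest in both Egfr and Braf, and BD3 and BD6 are highest in both Met and Socs3.

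The genes whose pattern over the animals was most like that of each member, after subtraction of group means, were sought among 12374 genes with at least 100 reads on average, and r is given as a description with no test. *Egfr* was followed most closely by *Pkn2*, a protein kinase gene (r = 0.928), and 85 genes reached an r of 0.8. *Erbb2* was followed by *Selenbp1* (r = 0.908) and *Ngef* (r = 0.886), both highest in V6. *Met* was followed by *Socs3*, a feedback inhibitor of cytokine signalling (r = 0.844), and the potassium channel gene *Kcnj15* (r = 0.839). *Socs3* was at 20.5 FPKM in BD3 and 19.5 FPKM in BD6, the animals with the most *Met* and the most *Marco*, and between 6.4 and 13.2 FPKM in the other animals.

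*Stk11* was followed by *Hsd17b8* (r = 0.938) and *Ranbp3* (r = 0.932), and with 203 genes at an r of 0.8 or more it had the widest company of the 8. *Rb1* was followed by *Itpr3*, a calcium channel of the endoplasmic reticulum (r = 0.935), and *Ino80d* (r = 0.926), with 127 genes at that level. *Braf* was followed by *Tmod2* (r = 0.903) and *Micall1* (r = 0.853). *Keap1* had the fewest, 6 genes, led by *Tedc2* (r = 0.878) and *Zscan12* (r = 0.867), and *Nfe2l2* was followed by *Tmed7* (r = 0.876) and *Fbxl4* (r = 0.868).

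The type 2 alveolar marker *Sftpc* stood at 12000 to 28000 FPKM, and the 5 type 1 markers summed to 1840 to 3910 FPKM. The thymus genes *Rag1*, *Rag2*, *Dntt* and *Ptcra* and the squamous genes *Krt4* and *Tp63* stayed under 1 FPKM in all animals. So did the skeletal muscle genes *Myh4* and *Tnnt3*, but *Acta1* of the same list stood at 21.4 FPKM in BD6, with 1.14 FPKM in V2 as the next highest. The liver gene *Alb* ran from 6.96 FPKM in B6 to 28.3 FPKM in BD4, while *Ttr* reached at most 4.38 FPKM and *Apoa1* at most 1.79 FPKM. The 6 heart genes measured summed to 52.7 to 545 FPKM and were highest in B6. Depth was 30800000 to 68200000 reads per animal, and the correlation of 2 animals over genes lay between 0.929 and 0.9875.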

How the data were processed

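The authors extracted total RNA from lung, made strand-specific libraries and deposited 1 table of FPKM, with 1 column per animal; 0 columns of per-animal values were left unused. The submitters' processing notes name FastQC, Trim Galore 0.4.5, STAR 2.7.2, SAMtools 1.5, featureCounts and Subread 1.5.3. The genome build and annotation are not given in the sources used here, so no coordinates are printed. Groups came from the sample labels. Each animal was 1 replicate.

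The deposited FPKM of column j had been divided by the length of the gene j rows above. Of small RNA genes, whose length is their RefSeq span (assembly ASM782708v3), 94.3% of 12602 values gave whole reads with the shifted length and 7.7% of 2630 with the own length, where chance gives 6%. Depth and 26060 of 27787 lengths were solved so that reads came out whole, and 98.8% of 207845 values of 1 to 1000 reads lay within 0.03 of a whole number. Lengths over the RefSeq span, or with reads nearly all multiples of 3, were dropped. 23759 genes had an own length and all 17 values, and FPKM was recomputed for these. Depth (30800000 to 68200000 reads) is known up to a factor of 2, which cancels in FPKM. Of 136 member values, 134 were whole reads, and the other 2, of *Met*, were fractional.

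Comparisons used limma 3.58.1 in R 4.3.3 on log2(FPKM + 1), with the study's tool and thresholds; the scale, the filter and the form of the fit were chosen here. A gene entered when 1 or more animals reached 1 FPKM, the 3 groups shared 1 fit without a trend, Benjamini-Hochberg adjustment ran over 13924 genes, and calls (two-sided) needed a 2-fold change and an adjusted p below 0.1. Fold changes on this scale understate those of low genes. Correlations used 100000 permutations, adjusted over 28 pairs. The script was tested on simulated data. Python 3.11.15 (numba 0.67.0, pandas 2.3.3, numpy 2.4.6, scipy 1.17.1) served for the remaining steps. The named genes are the members, the most and least abundant gene of each of 9 lists with up to 3 genes of the smallest unadjusted p under 0.05, and the 2 genes most like each member; *Hgf*, *Nqo1*, *Hmox1*, *Mki67* and the cell type markers are named outside this rule, after their values were seen. Members, lists and rules were chosen with earlier results of these data known. *Gsta4*, *Cdkn2a* and *Cdkn2b* were not analysed here, and a few genes that the rule names are not reported here. Alternatives were the deposited values, an additive fit, voom on recovered reads, other pseudocounts, filters and scalings, a trend, 2 groups alone, family as a block, and leaving out each animal.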

Additional observations from a re-analysis of the deposited data

Results flagged for a closer look

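Dixon's test at the 95% level was applied to the lowest and highest value of each member in each group, 24 groups in all, of which chance flags about 1 in 20. *Stk11* was flagged in bonded lungs, where B1 at 45.8 FPKM lay below the other 5 animals, the nearest of which was at 51.9 FPKM. *Keap1* was flagged in bond-disrupted lungs, where BD6 at 30.3 FPKM was the lowest of all 17 animals and the nearest other animal of its group was at 33.9 FPKM.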

How the results depend on the processing

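No member reached an adjusted p under 0.1 in any of 696 values under the alternatives, and with own lengths the lowest adjusted p was 0.606 (limma). The lowest unadjusted p with own lengths was 0.0266, for *Keap1* in virgin against bonded lungs without a filter on low values, and the lowest when 1 animal was left out was 0.0392, for *Stk11* without BD1. In the order bond-disrupted against bonded (a), virgin against bonded (b) and virgin against bond-disrupted (c), 0 genes were called with own lengths, and leaving out 1 animal gave 0 to 1 in each, with the 1 call in a and b without B4 and in c without BD6. With the deposited values 40, 113 and 35 genes were called, and the mean levels were 37.0 FPKM for *Egfr*, 93.4 for *Erbb2*, 312 for *Met*, 63.2 for *Braf*, 145 for *Stk11*, 239 for *Keap1*, 336 for *Nfe2l2* and 32.5 for *Rb1*, because lengths of other genes enter them. The values that changed sign follow, as log2 fold changes. With the deposited values these were *Egfr* -0.7871 (a) and 0.5289 (c), *Erbb2* -1.5688 (b), *Braf* 0.7256 (a), *Stk11* -0.1058 (c), *Nfe2l2* -0.1427 (a), 0.7066 (b) and 0.8493 (c), and *Rb1* -0.3015 (a). With an additive fit of gene, row offset and animal these were *Egfr* 0.0083 (b), *Met* -0.0119 (b), *Braf* 0.0195 (a), *Keap1* -0.0006 (a), *Nfe2l2* -0.0296 (a), and *Rb1* 0.0262 (b) and 0.0115 (c). With voom on recovered reads these were *Erbb2* -0.0009 (a) and -0.0035 (b), *Met* -0.0192 (b), *Keap1* -0.0213 (a) and *Rb1* -0.0113 (a). With quantile normalization these were *Met* -0.0069 (b), *Braf* 0.0185 (a), *Keap1* -0.015 (a) and *Nfe2l2* -0.0084 (a), and with median-ratio factors *Braf* 0.0039 (a). Apart from the deposited values, no main difference above 0.0922 in size changed sign, and the cause was not tested. Leaving out 1 animal changed the sign in 31 of 408 values, with ranges of -0.0039 to 0.129 (a) and -0.0703 to 0.0406 (b) for *Egfr*, -0.0108 to 0.0717 (a), -0.0209 to 0.0618 (b) and -0.0558 to 0.0304 (c) for *Erbb2*, -0.0533 to 0.0974 (b) for *Met*, -0.0422 to 0.0303 (a), -0.0422 to 0.0189 (b) and -0.0416 to 0.0279 (c) for *Braf*, -0.0912 to 0.0079 (b) for *Stk11*, -0.0482 to 0.0042 (b) for *Nfe2l2* and -0.0213 to 0.0618 (a) for *Rb1*. Other pseudocounts, filters, a trend and fits of 2 groups alone changed no sign. Without the 2 animals farthest from the median, r was -0.057 for *Keap1* with *Nfe2l2*, -0.103 for *Egfr* with *Erbb2* and 0.011 for *Egfr* with *Met*. The 5 NRF2 targets at an unadjusted p under 0.05 became 1 with voom (1.36% of all genes on that side) or quantile normalization (2.43%) and 3 with the additive fit (2.56%) or a pseudocount of 0.1 (2.84%).

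Same-numbered animals are siblings or cousins by the study's account, but the labels do not say so, and they were not treated as pairs. The deviations of the 6 same-numbered bonded and bond-disrupted pairs correlated at 0.045 to 0.48, with a median of 0.182, and 5 of the 6 lay above 0.1. Bonded and bond-disrupted animals of unlike number had a median of -0.073 (-0.335 to 0.252). Of the 6 bonded animals, 4 correlated best with the bond-disrupted animal of their own number. With the family number as a replicate block 0 genes were called, and the values that changed sign were *Erbb2* 0.0066 (c) and *Met* -0.0617 (b). The block lowered the SE in a for *Met*, from 0.1825 to 0.1269, and for *Erbb2* and *Nfe2l2*, and raised it for the other members. *Met* then had an unadjusted p of 0.175 in a and 0.098 in c, with adjusted p of 0.868 and 0.981 (limma). With the block, 4 of 16 NRF2 targets had an unadjusted p under 0.05 on the higher side in a, against 2.58% of all genes in that fit. Within the 6 same-numbered pairs, the bond-disrupted animal was higher in *Met* in 5 and lower in *Stk11* in 5. It was higher in 4 for each of *Egfr*, *Erbb2*, *Keap1* and *Nfe2l2*, in 3 for *Rb1* and in 2 for *Braf*. *Pgd* was higher in 6 and *Hbegf* lower in 6. Both had been named for a small unadjusted p in these same animals, so their counts are no separate evidence. The share of all genes with such counts is not given here.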
